A study of Mus musculus with 54 samples.

Results

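The 9 genes Alb, Afp, Myh6, Krt5, Gfap, Cd3e, Gcg, Nphs1 and Ttn, each a marker of a terminally differentiated tissue, were examined for accessible chromatin in mouse embryonic stem (ES) cells. The peaks studied were those of 1 merged ATAC-seq list whose centre lay within 50 kb of a transcription start site (TSS) of any of their transcripts in GENCODE M21, which gave 67 of 113737 peaks, and the genes were compared with all 21938 protein_coding genes on chromosomes 1 to 19, X and Y. The genes were chosen by name, with earlier results of these data known, and the rule used no property of their peaks. Accessibility was measured with the Tn5 transposase, which cuts and tags open DNA, in ZHBTc4, a line in which doxycycline (dox) turns off Pou5f1, the gene of OCT4. All groups carried the degradable fusion mCherry-OCT4-AID, the Tir1 ubiquitin ligase that allows its induced degradation, and the cell cycle reporter YPet-MD. All were grown in serum with 2i and LIF and received dox, so the endogenous gene was turned off in every group. Of the samples, 22 compared cell cycle phases: they had 26 hr of dox with or without 500 nM indole-3-acetic acid (IAA, which triggers loss of the fusion) for 2 hr before a sort into early G1, late G1, S and late S with G2. In the washout set of 16 samples, cells sorted into the same 4 phases had 31 hr of dox, with or without IAA for 2.5 hr, and then 4.5 hr after washing. The last 16 were unsorted and formed a time course, either untreated or given IAA for 30 min, 1, 2, 3, 4, 6 or 10 hr. Their dox time was taken as 34 hr. The study's methods state only 24 hr of dox before IAA, dox kept on throughout, and collection of all wells together. The list merges these 54 samples in 24 groups and gives positions only. No peak could therefore be assigned to a sample, a phase or a treatment, there was no replicate of any count, and no test was made: every value below describes 1 list.

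These genes encode the working proteins of tissues that an ES cell can give rise to but is not. Alb encodes albumin, the main plasma protein made by hepatocytes, and Afp encodes alpha-fetoprotein, its counterpart in yolk sac and fetal liver. Myh6 encodes the alpha myosin heavy chain of heart muscle and Ttn the giant spring protein titin of the sarcomere. Krt5 encodes a keratin of basal epidermal cells, Gfap the intermediate filament protein of astrocytes, Cd3e a signalling chain of the T cell receptor complex, Gcg the precursor of glucagon in pancreatic alpha cells, and Nphs1 nephrin of the podocyte slit diaphragm. Such genes are usually switched on late, by tissue-specific factors, and many of their promoters are poor in CpG, whereas CpG-rich promoters are accessible in most cell types whether or not the gene is strongly expressed. Expression was not measured here, so whether the genes were silent could not be checked, and the peak list did not show a uniformly closed group. All 10 of 10 genes of a pluripotency list, among them Nanog, Sox2, Tfcp2l1 and Pou5f1 itself, had a peak within 1 kb of an own TSS. So did 70.8% of all protein_coding genes and 10 of 10 widely expressed genes, so a TSS peak does not by itself check the cell type.

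The upstream sequences of 6 of the genes are shown because they are the places where a promoter peak would lie. Alb, Afp, Gcg and Krt5 had no peak within 8 kb of the start of the RefSeq transcript, Ttn had none within 2 kb, and Cd3e had its start inside a peak. Sequences are the bases before the RefSeq start in GRCm38.p6, 5′ to 3′ on the strand of the gene, and capitals mark matches to the TATA or MEF2 consensus. They span chr5:90460620-90460869 (+) for Alb, chr5:90490464-90490713 (+) for Afp, chr2:62483654-62483903 (−) for Gcg, chr15:101712906-101713155 (−) for Krt5, chr2:76982548-76982797 (−) for Ttn and chr9:45009628-45009861 (−) for Cd3e, the last without its 16 bases that GENCODE places in an exon.
Alb: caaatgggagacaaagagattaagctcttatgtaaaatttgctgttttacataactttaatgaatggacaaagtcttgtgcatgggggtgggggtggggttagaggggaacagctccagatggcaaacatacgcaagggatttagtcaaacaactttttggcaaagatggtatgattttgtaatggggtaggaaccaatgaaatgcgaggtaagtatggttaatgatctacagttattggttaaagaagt
Afp: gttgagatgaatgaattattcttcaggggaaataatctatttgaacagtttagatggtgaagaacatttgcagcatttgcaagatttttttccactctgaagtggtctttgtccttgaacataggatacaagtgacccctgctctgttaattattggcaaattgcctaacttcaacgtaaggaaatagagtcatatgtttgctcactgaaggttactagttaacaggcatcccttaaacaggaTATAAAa
Gcg: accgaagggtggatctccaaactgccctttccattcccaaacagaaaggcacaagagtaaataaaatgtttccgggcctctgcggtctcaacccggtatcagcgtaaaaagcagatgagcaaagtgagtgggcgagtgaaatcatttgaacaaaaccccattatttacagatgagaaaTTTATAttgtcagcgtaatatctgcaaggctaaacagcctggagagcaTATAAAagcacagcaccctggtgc
Krt5: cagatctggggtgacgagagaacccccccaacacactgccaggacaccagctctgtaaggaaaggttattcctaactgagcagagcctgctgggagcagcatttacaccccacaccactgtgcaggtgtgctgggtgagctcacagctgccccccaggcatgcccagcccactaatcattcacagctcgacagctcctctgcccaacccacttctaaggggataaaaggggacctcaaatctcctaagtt
Ttn: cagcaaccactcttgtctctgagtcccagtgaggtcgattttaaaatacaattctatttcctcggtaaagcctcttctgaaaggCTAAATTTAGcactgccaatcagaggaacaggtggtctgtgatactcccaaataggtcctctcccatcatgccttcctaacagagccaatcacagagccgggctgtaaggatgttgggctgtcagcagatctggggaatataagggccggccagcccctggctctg
Cd3e: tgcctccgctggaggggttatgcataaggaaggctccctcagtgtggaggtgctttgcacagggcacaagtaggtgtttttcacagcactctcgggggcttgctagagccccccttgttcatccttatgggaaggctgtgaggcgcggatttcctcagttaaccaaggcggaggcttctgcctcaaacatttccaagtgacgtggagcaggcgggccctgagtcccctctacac

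Over all own TSSs, 5 of the 9 genes had a peak within 1 kb of at least 1 TSS (Afp, Gfap, Cd3e, Nphs1 and Ttn), and 4 lacked one (Alb, Myh6, Krt5 and Gcg). Among all protein_coding genes, 70.8% had such a peak, a larger share than the 55.6% of the 9 genes. The count depended on what was taken as the start. At the 5′ end of the gene, the outermost annotated base, only Gfap, Cd3e and Nphs1 had a peak within 1 kb, 3 of 9 genes against 65.3% of all protein_coding genes. At the start in the RefSeq promoter table, which held an entry for all 9 genes, only Cd3e had one, 1 of 9 genes against 69.6% of the 16539 protein_coding genes with an entry. A peak covered the 5′ end base itself in 2 of 9 genes, Gfap and Cd3e, against 60.2% of all genes. Of 47 different TSS positions annotated for the 9 genes, 9 lay within 1 kb of a peak centre.

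**Figure D1:**
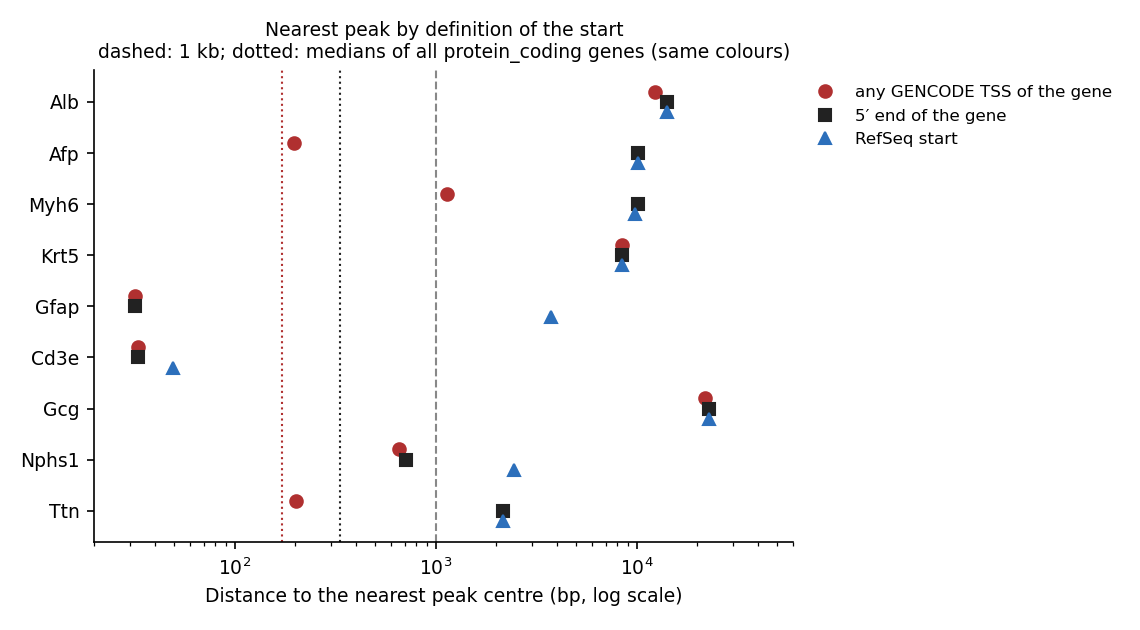
Distance in bp (log scale) from the start of each of the 9 genes to the nearest peak centre, for any GENCODE TSS (circles), the 5′ end of the gene (squares) and the RefSeq start (triangles), with a dashed line at 1 kb and dotted lines at the medians of all protein_coding genes, 172 bp for any TSS and 332 bp for the 5′ end. Cd3e sits left of 1 kb by all 3 definitions, whereas Alb, Myh6, Krt5 and Gcg sit to its right by all 3.

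Cd3e was the only one of the 9 genes whose RefSeq start lay inside a peak. Its peak of 365 bp at chr9:45009478-45009842 was centred 33 bp upstream of the 5′ end and 47 bp from the TSS of the protein_coding transcript, and its centre was within 1 kb of 3 of the gene's 4 TSSs. A TSS of Gm48720, a gene model that still awaits experimental support, lay within 1 kb of the same centre, so the peak cannot be given to Cd3e alone. The other chains encoded next to it did not share this: Cd3d and Cd3g, which lie 16435 and 21956 bp from a Cd3e TSS and whose products join the same receptor complex, had no peak at an own TSS, and their nearest peaks were 14800 and 6077 bp away.

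For the other 4 genes counted, the peak lay away from the start that RefSeq gives. The Gfap peak at chr11:102900511-102901377, 867 bp wide, was centred 32 bp upstream of a transcript of the type processed_transcript, which has no coding frame. The 2 TSSs of protein_coding Gfap transcripts lay 3712 and 3781 bp downstream of that, and the RefSeq start was 3744 bp from the peak centre. Both Afp peaks lay inside the gene, 10124 and 16890 bp downstream of its 5′ end, at TSSs of transcripts that retain an intron. The first of them, chr5:90500545-90501177, was 670 bp from such a TSS and did not cover it, and the other, chr5:90507341-90507913, covered a TSS 196 bp from its centre. The Ttn peak at chr2:76979934-76980834 was centred 2163 bp into the gene and covered the TSS of an alternative protein_coding transcript, 202 bp from its centre. The upstream Nphs1 peak, chr7:30457342-30457864, was 712 bp from the 5′ end of Nphs1 but 49 bp from a TSS of Kirrel2, which encodes a nephrin-related protein and is read in the opposite direction. The Kirrel2 TSS closest to Nphs1 lay 625 bp from the Nphs1 5′ end. The second Nphs1 peak, chr7:30484106-30484411, was 657 bp from a retained-intron TSS near the 3′ end of the gene, had a TSS of the pseudogene Rps12-ps4 within 1 kb as well, and was repeat-masked over 41.2% of its length. A TSS limit of 500 bp would leave Nphs1 without a peak and reduce the count to 4.

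The 4 genes without a peak differed in how far the nearest one lay. For Gcg it was 21892 bp from the nearest TSS, a distance larger than that of 89.3% of protein_coding genes. For Alb it was 12314 bp (larger than 85.0%) and for Krt5 8460 bp (larger than 82.4%). Myh6 was different, with a peak 1132 bp from a retained-intron TSS in the middle of the gene, just past the 1 kb limit, but 10152 bp from its 5′ end. Over any TSS, 2 of 9 genes, Alb and Gcg, had no peak within 10 kb, against 16.5% of all protein_coding genes. The median over the 9 genes was 657 bp, beside 172 bp over all protein_coding genes and 13017 bp over the 6403 protein_coding genes without a peak at an own TSS. Measured from the 5′ end, the median was 8460 bp, beside 332 bp over all genes.

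The stretch of DNA without a peak around the 5′ end was longest for the same 3 genes, Alb, Gcg and Krt5, in another order. It was 63197 bp for Alb, of which 49213 bp lay upstream, 47245 bp for Gcg, nearly even on both sides, and 37894 bp for Krt5. Afp and Myh6 followed with 25398 and 22255 bp, then Ttn with 11650 bp and Nphs1 with 7474 bp, whose free stretch began only 451 bp upstream at the edge of the peak next to Kirrel2. Gfap and Cd3e had none, as for the 60.2% of genes with the 5′ end inside a peak. The longest stretch among the 9, that of Alb, was close to the median of 63508 bp over protein_coding genes without a peak at an own TSS.

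**Figure D2:**
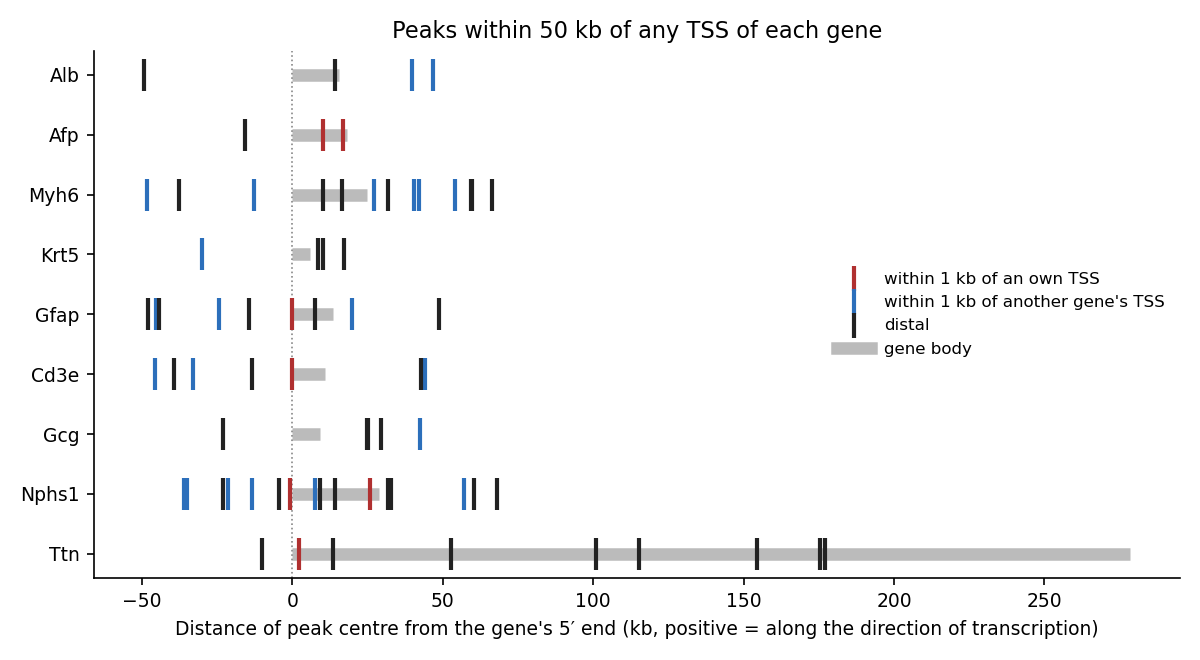
Peaks within 50 kb of any TSS of each of the 9 genes, drawn by the distance in kb of their centre from the gene's 5′ end, with the gene body as a grey bar and each peak as a tick coloured by whether it lay within 1 kb of an own TSS, within 1 kb of another gene's TSS, or distal to all TSSs. Alb, Krt5 and Gcg have wide gaps around 0, Ttn has its ticks spread along its body, and the windows of Nphs1 and Myh6 hold the most ticks, 16 and 13.

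Windows of 50 kb around the TSSs held between 3 peaks (Afp) and 16 peaks (Nphs1) per gene. Alb and Krt5 had 4 each, Gcg 5, Cd3e 7, Gfap and Ttn 9 each, and Myh6 13, with a median of 7 beside 8 over all protein_coding genes. The sum of 70 over the genes exceeded the union of 67 because Alb and Afp, whose nearest TSSs lie 28037 bp apart, shared 3 peaks. Of the 67, 7 were at an own TSS, 20 at a TSS of another gene and 40 were distal, that is more than 1 kb from every annotated TSS. The Ttn window was the widest at 256006 bp, since its 16 TSSs spread along the gene, so its 9 peaks made 3.52 per 100 kb of window. On that scale Afp had 2.57 peaks per 100 kb, Alb 3.93, Krt5 4.00, Gcg 4.86, Cd3e 6.53, Gfap 8.67, Myh6 10.6 and Nphs1 12.6. Peaks just inside the limit lay 49379 bp (Alb) and 48379 bp (Myh6) away, and those just outside 50233 bp (Myh6) and 50244 bp (Nphs1) away.

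Distal peaks, which include most enhancers and other elements away from promoters, were present near all 9 genes. Afp had 1, Alb 2, Krt5 and Cd3e 3, Gcg 4, Gfap 5, Myh6 7, and Nphs1 and Ttn 8. No member lacked a distal peak, against 9.77% of all protein_coding genes, and 4 of the 9 had at most 3, against 41.0%. The median of 4 equalled that of all protein_coding genes (quartiles 2 and 7), and 4 members lay below it, 1 at it and 4 above it. Per 100 kb of window, which allows for the spread of the TSSs, the median was 3.12 distal peaks for the 9 genes, beside 3.92 over all protein_coding genes, with 6 members below that value and 3 (Gfap, Myh6 and Nphs1) above it. Protein_coding genes without a peak at an own TSS had a median of 2, and those with one a median of 5. The 4 members without a peak at an own TSS had 2, 3, 4 and 7 distal peaks (Alb, Krt5, Gcg and Myh6), and the 5 with one had 1, 3, 5, 8 and 8 (Afp, Cd3e, Gfap, Nphs1 and Ttn), so the counts of both overlapped.

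**Figure D3:**
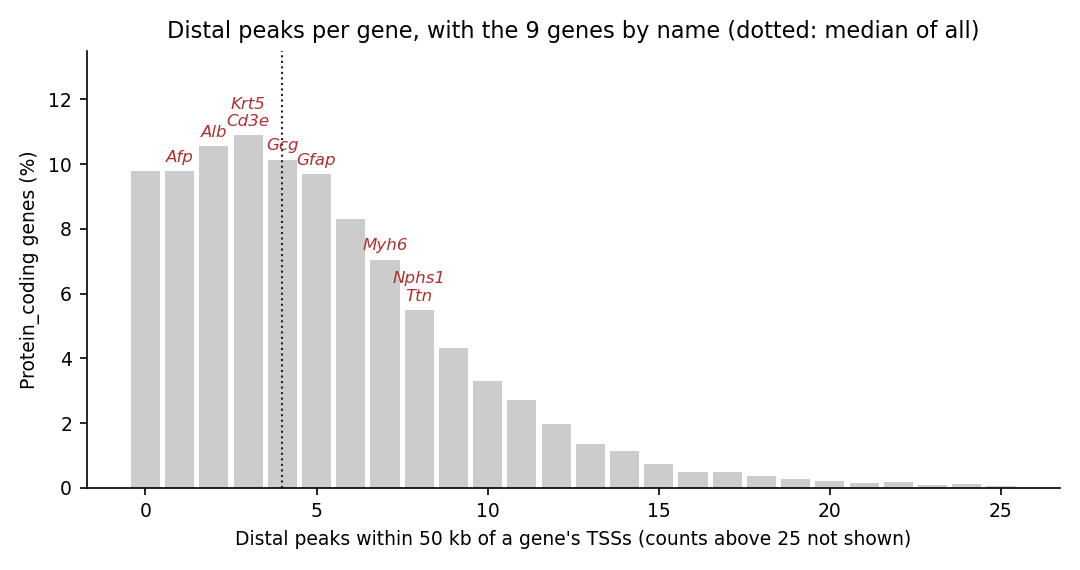
Share of protein_coding genes (%) by how many distal peaks lay within 50 kb of their TSSs, with the 9 genes written above the bar they belong to and a dotted line at the median of 4. The 9 genes run from 1 (Afp) to 8 (Nphs1 and Ttn), with names on both sides of the line.

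Of the 40 distal peaks, 23 lay in introns, 11 between genes and 6 in exons. Ttn held most of its distal peaks within its own 278568 bp body, 7 of 8, at 13416 to 177129 bp from its 5′ end, and its last distal peak lay 10081 bp upstream of the start. The only distal peak of Afp was in an intron of Alb (chr5:90474881-90475147, 267 bp), 15723 bp upstream of Afp and 14117 bp downstream of the Alb 5′ end. The 3 distal peaks of Krt5 all lay between Krt5 and the neighbouring Krt6a, 8460, 10304 and 17217 bp downstream of the Krt5 start, and Krt6a and Krt6b, which encode further keratins of the skin, had no peak at an own TSS, whereas Krt71, a keratin of the hair follicle sheath, did. Near Gcg, 3 of 4 distal peaks lay downstream in introns of the non-coding antisense gene Gm13561 and the other, 843 bp wide, in an intron of Fap. Myh6 had a distal peak in an exon and another in an intron of its own body, 16517 and 10152 bp from its start, and its neighbour Myh7, the beta myosin heavy chain gene, had no peak within 1 kb of an own TSS (nearest 5930 bp).

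Peaks centred in the gene body were absent from Krt5, Cd3e and Gcg, 3 of 9 genes against 28.7% of all protein_coding genes. Ttn had 10, Nphs1 4, Afp and Myh6 2 each, and Alb and Gfap 1 each. Per 100 kb of body this was 3.59 for Ttn, 6.37 for Alb, 7.37 for Gfap, 7.998 for Myh6, 11.01 for Afp and 13.8 for Nphs1, beside a median of 5.67 over all genes. The count of 10 in Ttn thus went with its length. In the 500 kb on each side of the 5′ end, the number of peaks ranged from 37 around Gcg to 110 around Nphs1, with 53 around Alb, 55 around Afp, 62 around Cd3e, 63 around Ttn, 80 around Myh6, 89 around Krt5 and 95 around Gfap. The median over all protein_coding genes was 59, and 6 of the 9 genes lay above it, so Krt5 had no promoter peak in a region with more peaks than 82.1% of genes.

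The 20 peaks at TSSs of other genes belonged mostly to the surroundings of Nphs1 and Myh6, with 6 each. The 5 widest peaks among the 67 were all of this kind, at Aplp1 (2119 bp), Nfkbid (1771 bp), Efs (1701 bp), C1ql1 (1576 bp) and Ngdn (1380 bp). Counting each once and leaving out the 9 genes, 31 other protein_coding genes had a TSS within 50 kb of one of theirs, and 18 of these (58.1%) had a peak at an own TSS, within the window or beyond it, beside 70.8% of all protein_coding genes. Around Gfap 4 of 5 did, among them Ccdc103, Eftud2 and Kif18b, and around Myh6 4 of 8 (Efs, Slc22a17, Ngdn and Pabpn1). The closest protein_coding neighbours without one included Afm, an albumin-family gene 11501 bp from Afp, and Cmtm5, 6730 bp from Myh6. All the neighbours without one had starts poor in CpG (ratio below 0.48, defined below), and the 58.1% and 70.8% were not matched for CpG. The only protein_coding neighbour of Gcg, Fap, had a peak 119 bp from an own TSS, but this peak lay outside the Gcg window.

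The starts of all 9 genes were poor in CpG. The ratio of observed to expected CpG over 500 bp on each side of the 5′ end was below 0.48 in all 9, from 0.11 in Myh6, 0.16 in Nphs1, 0.23 in Gfap, 0.27 in Krt5 and Cd3e, 0.32 in Alb, 0.38 in Ttn and 0.39 in Afp to 0.47 in Gcg, beside a median of 0.55 over all protein_coding genes, of which 45.2% fell below 0.48. Within this low class, 26.2% of all protein_coding genes had a peak within 1 kb of the 5′ end, beside 3 of the 9 (33.3%). From 0.48 to 0.75 the share was 95.9%, and from 0.75 up it was 99.0%. For a peak at any own TSS, the share in the low class was 37.5% of all protein_coding genes, beside 5 of the 9 (55.6%). The 5′ end base was inside a peak in 18.1% of the low class, beside 2 of the 9 (22.2%), and a RefSeq start had a peak within 1 kb in 34.9% of those with an entry, beside 1 of the 9 (11.1%). The shares of the 9 genes were thus below those of all protein_coding genes by all 4 definitions, and below those of the low class only at the RefSeq start. The order among the 9 did not follow the ratio: Gcg had the highest ratio and its nearest peak 21892 bp away, while Nphs1, with the next to lowest, had a peak within 1 kb. GC content ran from 37.3% (Alb), 39.1% (Afp) and 39.3% (Gcg), values that only 5.41%, 7.99% and 8.196% of protein_coding genes fell below, to 58.2% (Krt5).

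**Figure D4:**
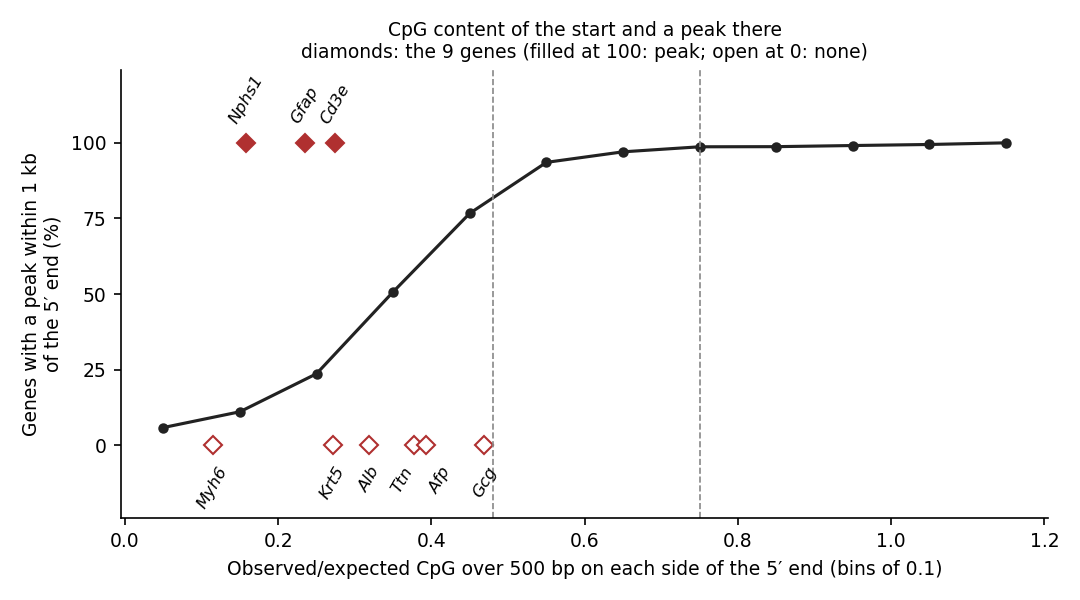
Share of protein_coding genes (%) with a peak within 1 kb of the 5′ end in bins of 0.1 of the observed/expected CpG ratio (line), with the 9 genes as diamonds, filled at 100 where they had such a peak and open at 0 where they had none. All 9 diamonds lie left of the first dashed line at 0.48, where the line climbs from 5.85% to 76.7%, and the second dashed line is at 0.75.

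Consensus matches were searched on both strands from 250 bases before to 50 bases after the 5′ end. The letters TATAAA were found at Afp and Gcg, beside 12.6% of all promoters, and began 7 and 24 bases before their RefSeq starts, with a further match on the opposite strand in Gcg. The nearest peaks were 10147 and 22929 bp from these starts. Myh6, whose RefSeq start lies 320 bp from its 5′ end and so outside the window searched, had TATAAA beginning 1 base after that start, 9832 bp from the nearest peak. A MEF2 consensus match, the site of a muscle activator, was found at Ttn and no other member, beside 0.51% of all promoters, and began 166 bases before the start. The CArG consensus was found at none of the 9, beside 1.48% of all promoters, which says only that these letters were not in the windows searched. None of these matches lay in a peak.

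Inside the peaks, the most frequent of 5 consensus matches was that of CTCF, the insulator protein that also anchors chromatin loops (up to 1 mismatch, both strands). It was found in 18 of the 67 peaks, near 8 of the 9 genes, Alb having one only in the peak it shared with Afp. Of the 40 distal peaks 12 held it (30.0%), beside 16.1% of all 89795 distal peaks, and of the 7 peaks at own TSSs 3 did, beside 18.4% of all proximal peaks. Those 3 were the upstream of the 2 Afp peaks and the peaks of Gfap and Ttn. The other Afp peak, both Nphs1 peaks and the Cd3e peak held none. The distal and own-TSS shares rest on only 12 and 3 peaks. The 3 sites are shown with 20 bases on each side, together with the distal sites of Myh6 and Cd3e closest to a peak centre, 3 and 6 bp away. They lie at chr5:90500928-90500939 (−), chr11:102900988-102900999 (+), chr2:76980418-76980429 (−), chr14:54900591-54900602 (+) and chr9:45022987-45022998 (+), are read 5′ to 3′ on the strand of the match, and capitals mark the match.
Afp, own TSS: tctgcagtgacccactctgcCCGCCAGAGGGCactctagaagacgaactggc
Gfap, own TSS: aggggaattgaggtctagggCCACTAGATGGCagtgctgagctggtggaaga
Ttn, own TSS: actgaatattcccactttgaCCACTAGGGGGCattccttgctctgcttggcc
Myh6, distal: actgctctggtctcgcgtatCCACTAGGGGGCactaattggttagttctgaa
Cd3e, distal: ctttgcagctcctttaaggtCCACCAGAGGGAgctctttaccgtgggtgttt

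Matches to the consensus of OCT, SOX and ESRRB, factors of the pluripotency network, were found in few member peaks, and those of KLF in more. The octamer ATTTGCAT, bound by OCT4 and other POU factors, was found in 1 of 40 distal member peaks (2.50%), beside 3.05% of all distal peaks, and the ESRRB consensus TCAAGGTCA in none, beside 3.11%. The SOX consensus (CC, A or T, TTGT, C or T) was in 3 of 40 (7.50%), beside 12.8%, and the KLF consensus (GGG, C or T, G, G or T, GGC) in 7 of 40 (17.5%), beside 8.90%. With 40 peaks, each of these shares rests on 7 peaks or fewer. The octamer peak, chr14:54956491-54957060 in an intron of Myh6, also held a SOX match, 93 bp from its centre, and was the peak nearest to any Myh6 TSS. The octamer at chr14:54957027-54957034 (+), in capitals, was 255 bp from the centre.
Myh6, octamer: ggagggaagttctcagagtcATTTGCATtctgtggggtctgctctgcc

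Distal member peaks were 172 to 1042 bp wide with a median of 329 bp, beside 380 bp over all distal peaks. Their median GC content was 50.4%, beside 47.7%, their median observed/expected CpG ratio 0.30, beside 0.21, and their median repeat-masked share 6.25%, beside 13.0%. The widest, of 1042 bp, lay in the Gfap body 7559 bp from its 5′ end and held 2 CTCF matches, both in exon sequence of Gfap. The peaks at own TSSs had a median width of 573 bp, beside 970 bp over all proximal peaks, and their CpG ratio stayed at or below 0.42, beside a median of 0.58.

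A wider list of 48 genes, 6 for each of 8 tissues and holding the 9, put these counts in context. Of the 39 that were not among the 9, 14 (35.9%) had a peak at an own TSS and 9 (23.1%) at the 5′ end, and their median number of distal peaks was 4, as for the 9. By tissue, 4 of 6 skin genes, 3 of 6 glia and kidney genes, 2 of 6 liver, heart, T cell and skeletal muscle genes, and 1 of 6 pancreas genes had a peak at an own TSS. The order changed at the 5′ end, with 3 of 6 glia genes, 2 of 6 heart and kidney genes, and 1 of 6 in each other tissue, skin included. Among the pancreas genes Gcg was not alone in a wide gap: the nearest peak was 21304 bp from Ins1 and 53240 bp from Cpa1, the insulin and carboxypeptidase genes, but it was nearer for Ins2, the other insulin gene (5512 bp, with 7 distal peaks), and Iapp, the amylin gene (3405 bp, with 10). Only Sst, which encodes somatostatin, had a peak within 1 kb, 392 bp away. In the low CpG class, 9 of the 34 tissue genes outside the 9 (26.5%) had a peak at an own TSS, beside 37.5% of all protein_coding genes of that class, and 4 of the 34 (11.8%) had one at the 5′ end, beside 26.2%. Both shares lay below the background of the class, unlike those of the 9 genes by these definitions of the start. At the RefSeq start, the 9 genes also lay below the low class, with 1 of 9 (11.1%) beside 34.9%. There 7 of the 31 other tissue genes with an entry, of any CpG class, had a peak (22.6%).

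**Figure D5:**
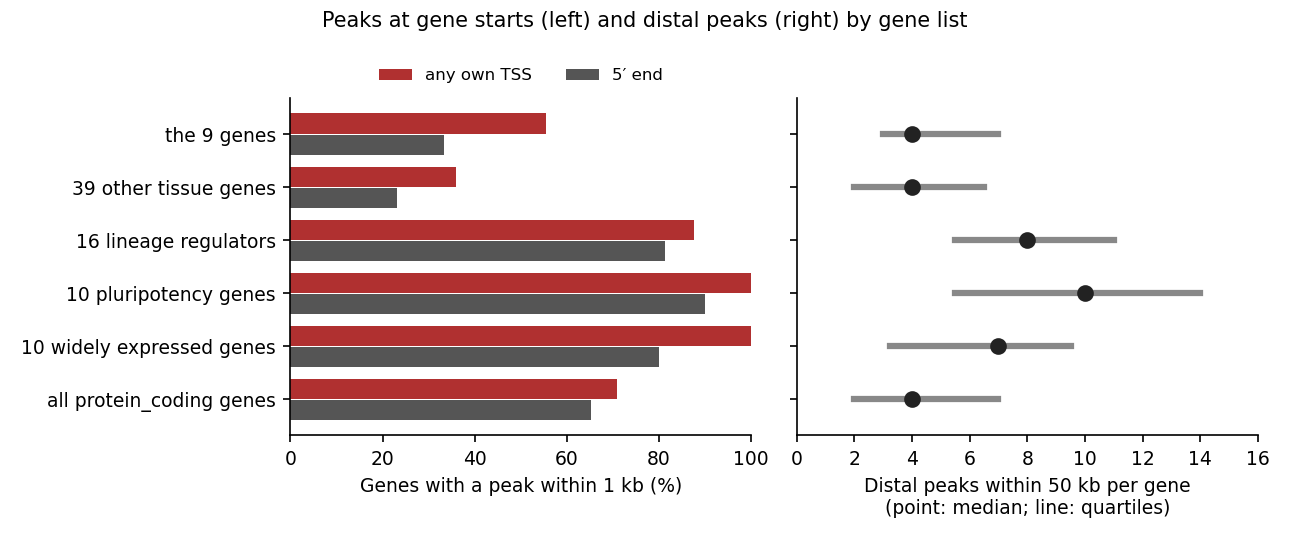
Left, share of genes (%) with a peak within 1 kb of any own TSS (red) or of the 5′ end (grey) for the 9 genes, 4 comparison lists and all protein_coding genes; right, the median (point) and quartiles (line) of distal peaks within 50 kb per gene. The 9 genes and the 39 other tissue genes have the shortest bars, and their median of 4 distal peaks per gene, not scaled to window size, equals that of all protein_coding genes.

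Regulators of the same lineages were 16 genes of transcription factors such as Gata4, Trp63, Sox9, Pdx1 and Myod1. Before CpG content was considered, they more often had a peak at the start, and had more distal peaks, than the tissue genes. Of the 16 regulators, 14 (87.5%) had a peak at an own TSS and 13 (81.3%) at the 5′ end, and their median number of distal peaks was 8. The exceptions were Hnf4a and Trp63, with nearest peaks at 3463 and 2020 bp, both in the low CpG class. In that class 2 of 4 regulators had a peak at an own TSS and 1 of 4 at the 5′ end, no more than the 5 and 3 of the 9 members as a share, whereas all 9 regulators of the middle class and all 3 of the high class had both. Distal peaks differed within the low class too. Their median was 6.5 for its 4 regulators, 4 for the 9 members, 4 for the 34 other tissue genes and 3 for all protein_coding genes. Of 10 widely expressed genes all had a peak at an own TSS and a median of 7 distal peaks, and the pluripotency genes had a median of 10. All 9 members lay below that last value. These lists differ from the members in CpG content as well as in function, and the part of each cannot be told apart in 1 list of positions.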

How the data were processed

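ATAC-seq libraries of 54 samples were reduced by the authors to the deposited list, which holds a chromosome, a start and an end in bp for each region and no score, count or signal. Per the study's methods, reads were aligned to mm10 (GRCm38) with STAR 2.6.1c, duplicates were removed with Picard, reads off chromosomes 1 to 19, X and Y were discarded, peaks were called with MACS2 2.1.1.20160309 on paired-end fragments, and BEDTools joined the peaks of all OCT4-AID experiments with dox. Whether peaks were called per library or on pooled libraries is not given in the sources used here. Removal of regions above 5 kb is described, yet 11 of the 113737 regions exceeded that width (all regions spanned 152 to 38206 bp with a median of 447 bp), and none of these lay in the windows studied, whose widest peak was 2119 bp. The list joins the peaks called over all these experiments, so it can grow with depth and number of libraries, and the depth is unknown from these positions. The methods also describe removal of peaks that overlap blacklisted regions or peaks called in input samples. Absence of a peak therefore says that none was called and kept, not that the DNA was closed.

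Positions are 1-based on GRCm38. The sequence GRCm38.p6 held all regions, and TSSs were the 5′ ends of all transcripts in GENCODE M21. A peak belonged to a gene when its centre lay within 50 kb of a TSS, was at a TSS within 1 kb, and was distal when over 1 kb from every TSS of any gene. Windows for promoter motifs and CpG were placed at the GENCODE 5′ end. Printed promoter sequences and RefSeq starts came from the RefSeq promoter table (GRCm38.p6), which matched 9 of 9 genes, and 16539 of 21938 protein_coding genes by symbol. Motifs were plain consensus matches on both strands. The CTCF consensus allowed 1 mismatch. A KLF match can overlap another, and each peak was counted once per motif. Genes named in the text were the 9, their nearest protein_coding neighbours, genes with a TSS at a member peak, exceptions within the lists, the 5 widest peaks and up to 10 motif peaks. The members and lists were chosen with earlier results of these data known. The Wilson 95% interval of the 70.8% share was 70.2 to 71.4% and covers counting error only. Python 3.11.15, numpy 2.4.6, pandas 2.3.3, matplotlib 3.10.9 and samtools 1.23.1 were used, and the counting was tested on simulated data. Alternatives to the TSS distance, the TSS set, the window, the width limits and the merging of peaks were tried. Some planned results are not reported here. No test was made, since a merged list has no replicates.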

Additional observations from a re-analysis of the deposited data

How the results depend on the processing

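Of 47 recomputed values, 31 kept within 1.5 times the reported count or, for the share of protein_coding genes, within its interval of 70.2 to 71.4%. The number of the 9 genes with a peak at their start was the value most dependent on the definition: 5 with any TSS, 3 with the 5′ end of the gene alone (Gfap, Cd3e and Nphs1), 3 with TSSs of protein_coding transcripts alone (Cd3e, Nphs1 and Ttn) and 1 with RefSeq starts (Cd3e), the last chosen after seeing the data. For the 48 tissue genes it fell from 19 to 12 with the 5′ end and to 8, of 40 with an entry, with RefSeq starts. The share of all protein_coding genes was 65.3% with the 5′ end, 69.6% with coding TSSs and with RefSeq starts, 67.2% with a TSS distance of 500 bp, 74.8% with 2500 bp and 71.9% when any overlap counted, so it moved far less than the count of the 9 genes. The union of 67 peaks became 36 with a window of 20 kb and 119 with 100 kb. The median of 4 distal peaks became 2 with 20 kb, 7 with 100 kb and 2 when distal meant over 2500 bp from any TSS; the windows hold fewer or more bases by construction. Leaving out peaks under 200 bp or over 5 kb and joining gaps under 500 bp kept every count within 1.5 times. No paired analysis was possible because the list is merged over all samples and gives no value per replicate. Depth, which decides whether a weak region was called, could not be varied.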

Other observations

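Of the liver list, Apob, the lipoprotein gene, had its nearest peak 69 bp from an own TSS and its 5′ end inside a peak, whereas Apoa1, Cyp3a11 and Tat had none within 1 kb (1519, 8135 and 2948 bp). Of the heart list, Tnnt2 and Ryr2 had a peak within 1 kb of the 5′ end. They had 13 and 14 distal peaks, but in windows of 113097 and 445548 bp. Myl7 missed the 1 kb limit by its nearest peak at 1004 bp. Of the glia list, Mbp had 20 distal peaks in a window of 188117 bp and Aqp4 1 in 110981 bp. Of the skeletal muscle list, Ckm had a peak 754 bp from its start, and Myh1 had no peak in its window, the nearest lying 58683 bp away.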
